A study of Mus musculus with 9 samples.

Results

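The nucleus accumbens (NAc), which makes up most of the ventral striatum, was compared with the dorsal striatum (dStr) in mouse brain. The comparison rests on the 3 arrays titled NAc and the 3 arrays titled dStr, which are 6 of the 9 arrays of the series, chosen by title alone. The other 3 arrays, titled BNST, hold the bed nucleus of the stria terminalis. They enter below through the common estimate of spread and as a further level beside the others. All mice were untreated as far as the labels say, and neither strain nor sex nor age is stated in them. They were anaesthetised with isoflurane and decapitated, and each region was punched from semi-frozen coronal slices of 300 µm. From each sample, 10 ng of total RNA was amplified and labelled with biotin, and it was read on 1 Affymetrix Mouse430_2 array, a chip of short oligonucleotide probes grouped into probe sets. A punch holds every cell type of its place, so fewer cells of a type and less RNA per cell cannot be told apart in any value below. The labels call the 3 samples of a region biological replicates without saying that they came from separate animals, so the p-values measure only the spread between these samples.

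Most neurons of both regions are GABAergic medium spiny projection neurons. Those of the direct pathway carry the D1 dopamine receptor and the peptides substance P and dynorphin, and those of the indirect pathway carry the D2 dopamine receptor and enkephalin. The dStr receives sensory, motor and associative cortex and is divided into patches (striosomes) and a surrounding matrix. The NAc receives limbic input from hippocampus, amygdala and prefrontal cortex, and its shell borders the extended amygdala.

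The dStr arrays resembled each other more closely than the NAc arrays did. Across the 14208 genes tested, Pearson's r of the log2 levels was 0.969 to 0.975 between dStr arrays. It was 0.938 between NAc 1 and NAc 2, 0.909 between NAc 1 and NAc 3 and 0.964 between NAc 2 and NAc 3. NAc 2 was nearer to dStr 2, with r of 0.958, than to NAc 1, and NAc 1 was the array least like the rest of its region. The array BNST 1 had r of 0.965 with NAc 3, about that between NAc 2 and NAc 3, and 0.953 with NAc 2. NAc 1 also had the lowest mean level of 95 ribosomal protein and respiratory chain genes, 10.4 on the log2 scale, against 10.8 in NAc 2, 11 in NAc 3 and 10.7 to 10.9 in dStr. Array medians lay between 95.2 and 101.99 intensity units in these 6 arrays, and 2270 to 2698 probe sets of each array lay at the common lowest value of 15, called the floor below.

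Levels were compared as log2(intensity + 16) with limma, and a gene passed at a Benjamini-Hochberg adjusted p under 0.05 over all 14208 genes. Of these, 291 genes (2.05%) differed between the regions, of which 135 (0.950%) were higher in NAc and 156 (1.10%) were lower in NAc. Among them, 175 differed by a log2 value of 1 or more, 75 upward and 100 downward in NAc. The median difference of the genes that passed was 1.04 for those higher and -1.20 for those lower in NAc, against -0.01 over all genes tested. The 3 NAc arrays did not overlap the 3 dStr arrays in 2720 genes (19.1%), 1294 (9.11%) with NAc above dStr and 1426 (10.0%) with NAc below. All 291 genes that passed were among them. An unadjusted limma p under 0.05 was reached by 1860 of the 14208 genes, and the unadjusted counts of single lists below are read beside that share. The counts that passed in single lists are read beside 2.05% of all genes, 0.950% higher and 1.10% lower in NAc. Of the probe sets without a single gene symbol, 5470 were tested apart, and 37 of them (0.676%) passed, 20 higher and 17 lower in NAc. The number of genes that passed depended on single arrays. Leaving out NAc 3 left 192, and leaving out dStr 1, dStr 2 or dStr 3 left 134, 136 or 112. The number higher in NAc was 232 without NAc 1 and 77 without NAc 2.

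**Figure D1:**
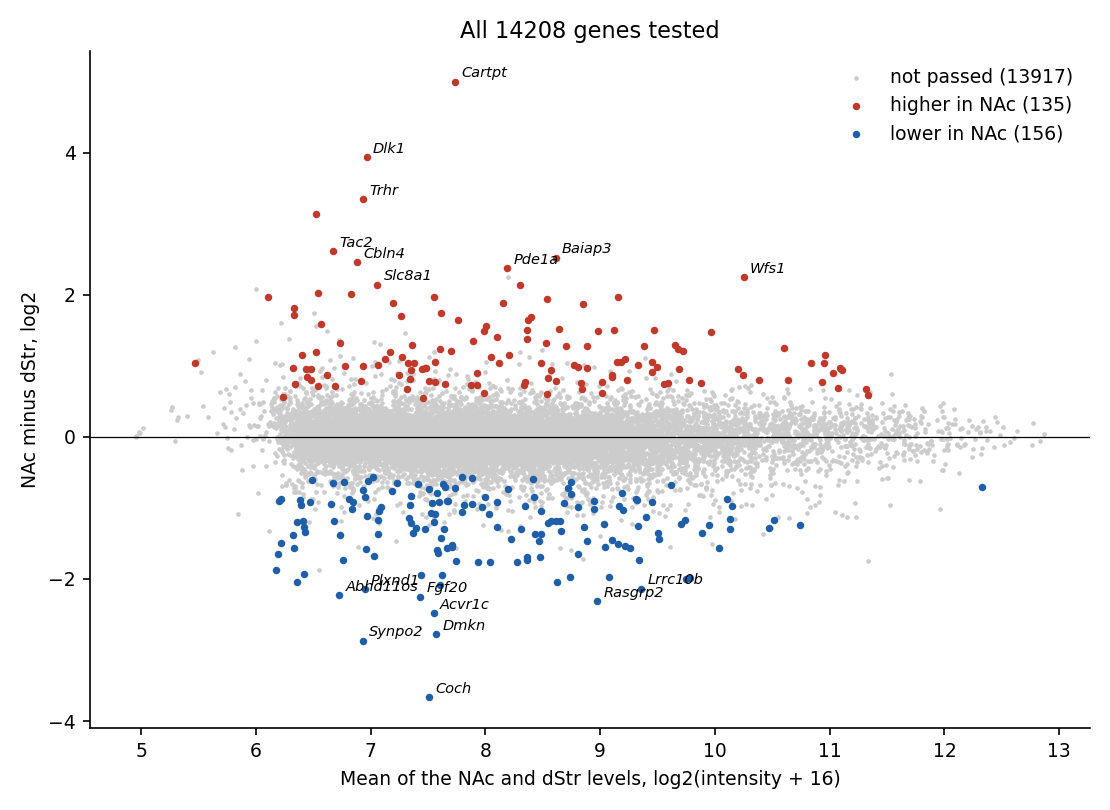
Difference between NAc and dStr (y axis, log2) against the mean level of both regions (x axis, log2 of intensity plus 16) for the 14208 genes tested, 1 point per gene. The 135 genes higher in NAc (red) reach a difference of 5.00 at Cartpt, and the 156 genes lower in NAc (blue) reach -3.66 at Coch.

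Cartpt, the precursor of the CART peptides that act on feeding and reward, had the largest difference of all genes. Its intensities in arrays 1, 2 and 3, the order used throughout, were 1412, 1125 and 1065 in NAc and 20.7, 31.1 and 15 in dStr. Every NAc array was thus far above every dStr array, and dStr 3 stood at the floor (log2 difference 5.00, standard error (SE) 0.25, limma adjusted p = 1.05e-05). The BNST mean was 306, between both. Dlk1, an imprinted, Delta-like transmembrane protein of the Notch ligand family, read 242, 728 and 597 in NAc and 15, 17.6 and 15 in dStr. Both dStr 1 and dStr 3 stood at the floor, and NAc 1 had the lowest of the NAc values (log2 difference 3.94, SE 0.39, adjusted p = 0.00117). At the opposite end was Coch, the extracellular matrix protein cochlin, with 48.8, 29.7 and 29.2 in NAc and 612, 644 and 639.7 in dStr. Its dStr values lay close together, and no NAc array came near them (log2 difference -3.66, SE 0.18, adjusted p = 1.05e-05).

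The promoter of each of these 3 genes is shown because they carry the largest differences in either direction. Each window is the 250 bases before the annotated start in RefSeq (build GRCm38.p6), written 5′ to 3′ on the gene's strand. Capitals mark matches to the cAMP response element TGACGTCA or its half-site TGACG, searched on both strands, where each full element also holds a half-site on each strand.
Cartpt: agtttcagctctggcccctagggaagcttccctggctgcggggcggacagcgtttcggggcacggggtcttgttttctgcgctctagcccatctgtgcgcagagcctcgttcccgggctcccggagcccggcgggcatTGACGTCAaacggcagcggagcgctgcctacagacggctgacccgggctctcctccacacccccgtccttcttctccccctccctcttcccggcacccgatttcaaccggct
Dlk1: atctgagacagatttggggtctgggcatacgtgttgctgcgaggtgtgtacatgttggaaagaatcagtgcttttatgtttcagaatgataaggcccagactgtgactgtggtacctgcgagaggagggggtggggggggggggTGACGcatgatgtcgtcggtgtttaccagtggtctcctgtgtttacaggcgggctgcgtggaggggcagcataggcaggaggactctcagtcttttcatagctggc
Coch: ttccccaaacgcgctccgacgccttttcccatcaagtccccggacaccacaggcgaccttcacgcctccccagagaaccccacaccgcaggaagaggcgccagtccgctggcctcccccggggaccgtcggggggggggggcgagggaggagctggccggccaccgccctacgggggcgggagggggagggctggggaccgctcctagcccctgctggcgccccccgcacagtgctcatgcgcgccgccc
The Cartpt window lies at chr13:99900684-99900933 on the minus strand and holds the full element 112 to 105 bases before the start. The Dlk1 window, at chr12:109452573-109452822 on the plus strand, holds a half-site that begins 106 bases before the start. The Coch window, at chr12:51593091-51593340 on the plus strand, holds none of these letters. The full element was found before 1.77% of the 27025 genes with a promoter in the table and 2.77% of the tested ones, and the half-site before 19.8% and 28.1%. Among genes that passed, 220 of 291 had a promoter there. Of the 110 higher in NAc, 4 genes (3.64%) held the full element and 36 (32.7%) the half-site. Of the 110 lower in NAc, 1 gene (0.909%) held the full element and 29 (26.4%) the half-site. A match is a description of the letters and not of a bound site.

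The next genes by size of the excess in NAc were Trhr, Tac2, Baiap3, Cbln4, Pde1a and Wfs1. Trhr, the receptor for thyrotropin-releasing hormone, read 984, 403 and 126 in NAc and 15, 42.1 and 15.3 in dStr. The NAc arrays spread widely, and the lowest of them was still above the highest dStr array (log2 difference 3.35, SE 0.56, adjusted p = 0.0116). Tac2, the precursor of neurokinin B, read 147, 302 and 295 in NAc and 27.5, 26.6 and 21.4 in dStr (log2 difference 2.62, SE 0.27, adjusted p = 0.00128). Its BNST mean was 964, higher than in either part of the striatum. Baiap3, a C2-domain protein of dense-core vesicle traffic, read 459, 1106 and 1537 in NAc and 183, 139 and 126 in dStr. NAc 1 was the lowest NAc array and still above all dStr arrays (log2 difference 2.52, SE 0.35, adjusted p = 0.0046). Wfs1, the endoplasmic reticulum protein wolframin, read 2731, 2875 and 2335 in NAc and 527, 632 and 481 in dStr (log2 difference 2.25, SE 0.19, adjusted p = 0.000528). Its values hardly varied within a region.

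Cbln4, a secreted synaptic organiser of the cerebellin family, differed by 2.46 ± 0.28 (log2 ± SE, adjusted p = 0.00181), with 177, 351 and 279 in NAc and 31.2, 56.5 and 21.0 in dStr. Pde1a, a calcium- and calmodulin-dependent phosphodiesterase, read 443, 844 and 729 in NAc and 123, 96.1 and 118 in dStr (log2 difference 2.38, SE 0.26, adjusted p = 0.00154). Slc8a1, the plasma membrane sodium and calcium exchanger, read 177, 397 and 259 in NAc and 39.7, 58.1 and 45.5 in dStr (log2 difference 2.14, SE 0.25, adjusted p = 0.00224). In these 3 genes NAc 1 was again the lowest of the NAc arrays, and none of their arrays overlapped between regions. Plcxd3, a phospholipase C-like protein, Lrrn3, a leucine-rich repeat membrane protein, and Marchf1, a membrane-bound ubiquitin ligase, differed less among the NAc arrays. Plcxd3 read 783, 774 and 594 in NAc and 182, 198 and 145 in dStr (log2 difference 1.94, SE 0.19, adjusted p = 0.00117). Lrrn3 differed by 1.88 ± 0.19 (adjusted p = 0.00123) and Marchf1 by 1.97 ± 0.18 (adjusted p = 0.000827).

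The remaining genes among the 20 largest excesses in NAc had log2 differences between 1.81 and 2.13. They were Tmem255a (2.13), the extracellular heparan sulfatase Sulf1 (2.02), Ipcef1 (2.02), Wdr6 (1.97), the corticotropin-releasing hormone gene Crh (1.97), the netrin receptor Unc5d (1.89), the protocadherin Pcdh8 (1.87) and the organic anion transporter Slc22a8 (1.81), all with adjusted p of 0.0393 or less. In Sulf1 and Ipcef1 another probe set of the gene went the other way. Wdr6 read 699, 1043 and 1887 in NAc and 310.1, 240.1 and 271 in dStr, with a BNST mean of 2732. Tmem255a, Baiap3, Slc8a1, Crh, Unc5d, Pcdh8 and Slc22a8 also had BNST means above their NAc means, and Sulf1 had nearly equal ones (177 and 175). On the log2 scale, the BNST mean lay nearer to NAc than to dStr in all 20 genes with the largest excess. The calls of 5 of these genes were lost without single arrays, at an adjusted p of up to 0.0708 without dStr 3 for Trhr, 0.113 without dStr 1 for Crh, 0.091 without dStr 3 for Unc5d, 0.0823 without dStr 3 for Pcdh8 and 0.191 without dStr 1 for Slc22a8.

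**Figure D2:**
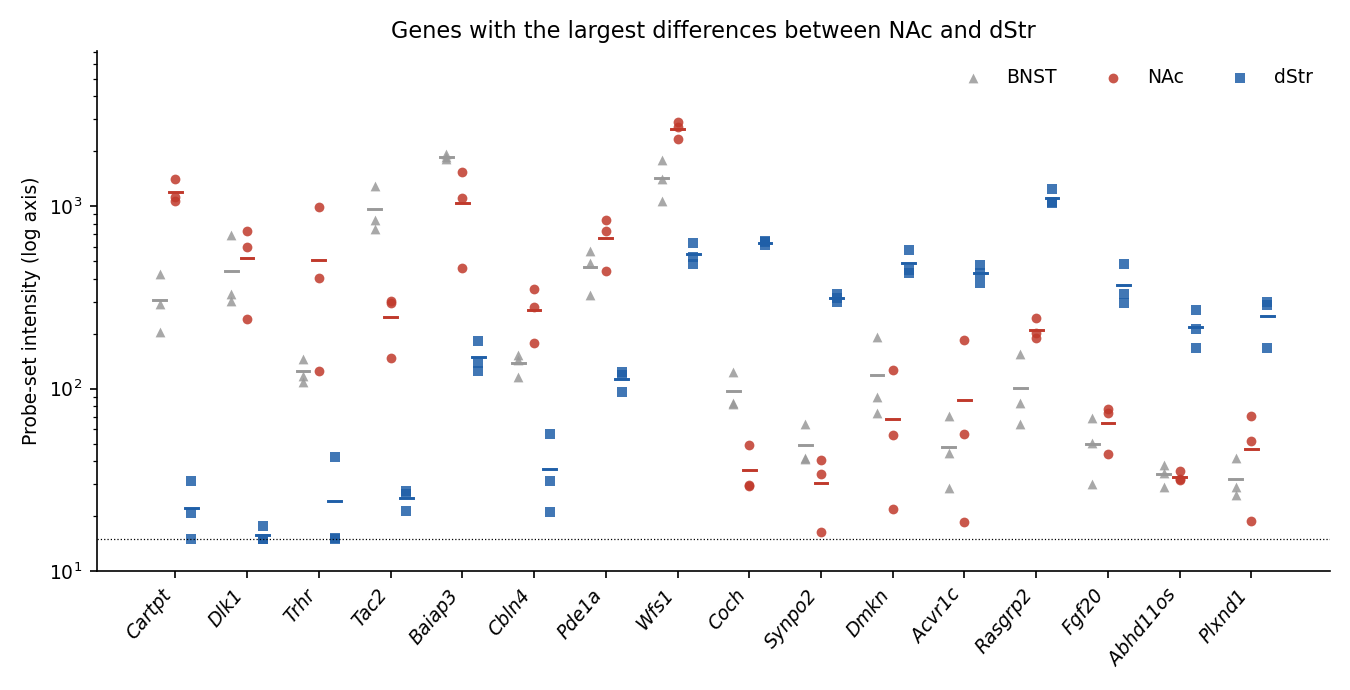
Probe-set intensity (log axis) of the 8 named genes with the largest excess in NAc and the 8 with the largest deficit, 1 symbol per array, with bars at the means of the 3 arrays and a dotted line at the floor. In each gene the NAc circles and the dStr squares do not overlap, and the grey triangles give BNST.

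After Coch, the largest deficits among the genes named here were those of Synpo2, Dmkn, Acvr1c and Rasgrp2. Rasgrp2, a calcium-activated exchange factor for the GTPase Rap, read 243, 201 and 189 in NAc and 1054, 1035 and 1242 in dStr (log2 difference -2.31, SE 0.24, adjusted p = 0.00136). Its groups were far apart and its NAc arrays even. Synpo2, an actin-binding protein, read 40.8, 34.1 and 16.4 in NAc and 328, 299 and 314 in dStr (log2 difference -2.87, SE 0.21, adjusted p = 0.000216), with another probe set in the other direction. Nexn, which binds actin filaments, read 251, 179.8 and 124 in NAc and 862, 641 and 864 in dStr (log2 difference -2.04, SE 0.30, adjusted p = 0.00721), and Inf2, a formin that builds them, 357, 495 and 405 in NAc and 1795, 1511 and 1829 in dStr (log2 difference -1.997, SE 0.34, adjusted p = 0.0144). Cnr1, the CB1 cannabinoid receptor, read 274, 499 and 557 in NAc and 1497, 1601 and 2189 in dStr. Its lowest dStr array was well above its highest NAc array, and NAc 1 was the lowest of all (log2 difference -1.99, SE 0.30, adjusted p = 0.0074). The Cnr1 mean in BNST was 551.

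Fgf20, a fibroblast growth factor, read 43.7, 73.7 and 77.0 in NAc and 296, 329.5 and 479 in dStr (log2 difference -2.25, SE 0.26, adjusted p = 0.00216). Plxnd1, the semaphorin receptor plexin D1, read 18.7, 70.4 and 51.5 in NAc and 286, 168 and 299.7 in dStr (log2 difference -2.15, SE 0.32, adjusted p = 0.00722). In both genes every NAc array was below every dStr array. Acvr1c, the activin-type receptor ALK7, read 184, 56.2 and 18.7 in NAc and 428, 380.0 and 477 in dStr and Dmkn, the secreted protein dermokine, 126, 55.6 and 21.8 in NAc and 448, 576 and 431 in dStr. Both were highest in NAc 1 and lowest in NAc 3 among the NAc arrays, and neither overlapped dStr (log2 difference -2.48, SE 0.50, adjusted p = 0.033 for Acvr1c, log2 difference -2.77, SE 0.44, adjusted p = 0.00899 for Dmkn). Abhd11os, a transcript antisense to Abhd11, read 31.8, 31.4 and 35.3 in NAc and 271, 168 and 212 in dStr (log2 difference -2.23, SE 0.17, adjusted p = 0.000216). Arg2, the mitochondrial arginase, read 27.8, 31.0 and 24.8 in NAc and 150.3, 123 and 182 in dStr (log2 difference -1.92, SE 0.15, adjusted p = 0.000224). Both were low and even in NAc, at about the level of BNST.

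The rest of the 20 largest deficits ranged from -2.13 to -1.88 on the log2 scale. They were Lrrc10b (-2.13), Fam241a (-2.09), the choline transporter-like Slc44a4 (-2.04), Syndig1l (-1.98), the cell cycle protein cyclin D2, Ccnd2 (-1.97), the transcription factor Egr2 (-1.95), the channel family member Calhm4 (-1.94) and the Ras-association protein Rassf4 (-1.88), all at an adjusted p of 0.0315 or less. Single arrays ended 7 of the 20 calls, at up to 0.0557 without dStr 2 for Dmkn, 0.15 without dStr 3 for Acvr1c, 0.0695 without dStr 3 for Lrrc10b, 0.0775 without dStr 3 for Inf2, 0.105 without dStr 3 for Syndig1l, 0.137 without dStr 1 for Egr2 and 0.14 without dStr 3 for Calhm4. The BNST mean of all 20 genes lay nearer to NAc than to dStr on the log2 scale. Among the genes that passed in this direction, the NAc array nearest to dStr was NAc 1 in 42, NAc 2 in 79 and NAc 3 in 35. Among those higher in NAc it was NAc 1 in 77, NAc 2 in 10 and NAc 3 in 48.

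The regional lists were drawn up with earlier results of these arrays known, so they are no independent evidence of their direction. Of the 18 tested members of the ventral striatum list, 11 were higher in NAc and 0 lower in limma (15 and 0 at an unadjusted p under 0.05), with a median difference of 2.17. Beyond those above, they were Stard5, a lipid transfer protein (1.35, adjusted p = 0.0132), Zcchc12 (1.15, 0.00188) and the imprinted proteolipid Nnat (1.04, 0.0281). Zcchc12 read 2859, 2987 and 3006 in NAc and 1210.3, 1372 and 1394 in dStr, even within each region. Of the members that did not pass, the neurotensin precursor Nts read 294, 856 and 949.6 in NAc and 91.4, 301 and 56.0 in dStr, so that dStr 2 overlapped NAc 1 (log2 difference 2.25, SE 0.54, adjusted p = 0.0698). The calcitonin receptor gene Calcr read 21.6, 236 and 228 in NAc and 15, 15.4 and 15 in dStr, with NAc 1 near the floor (log2 difference 2.09, SE 0.60, adjusted p = 0.135). The count was 14 without NAc 1, where Calcr had an adjusted p of 8.83e-05, Nts of 0.013 and the calcium-binding calretinin gene Calb2 of 0.0274. It was 8 without dStr 1 and 8 without dStr 3.

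Calb2 differed by 1.11 over all arrays (adjusted p = 0.112), with a BNST mean of 1255. Crym, a thyroid hormone-binding protein, read 4163, 4331 and 3579 in NAc and 1939, 2113 and 2482 in dStr without overlap (log2 difference 0.88, SE 0.29, adjusted p = 0.187), and it passed in a fit of the 6 arrays alone, at 0.0271. The BNST arrays of Crym, which enter its SE, read 1614, 683 and 1591. The transcription factor Tshz1 differed by 0.27, Tmem158 by -0.21 and the neuropeptide Y receptor Npy1r by 0.02. The D3 dopamine receptor gene Drd3, a known marker of the NAc shell, stayed below the filter on low values, at 31.4, 23.9 and 34.4 in NAc and 26.9, 29.3 and 37.2 in dStr. Peg10 also stayed below it. Losses without 1 array reached 0.074 without dStr 3 for Stard5 and 0.106 without dStr 1 for Nnat.

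Of the 17 tested members of the dorsal striatum list, 9 were lower in NAc and 0 higher (12 and 1 at an unadjusted p under 0.05), with a median of -1.29. They were Coch, Rasgrp2, Plxnd1, Inf2, Cnr1, Actn2, Reln, Rgs9 and Sema7a. Reln, the extracellular signalling protein reelin, read 838, 604 and 411 in NAc and 1510.0, 2145 and 1759.5 in dStr (log2 difference -1.57, SE 0.23, adjusted p = 0.00695). Sema7a, a membrane-anchored semaphorin, differed by -0.90 (adjusted p = 0.0135, and 0.0798 without dStr 3). Members that did not pass included Cck, the precursor of cholecystokinin, at -1.46 (adjusted p = 0.0775), Gpr155 at -1.12, the calcium buffer calbindin, Calb1, at -0.69, Kcnab1 at -0.62, Sgk1 at -0.53 and Epha4 at -0.47. The other 2 had a positive difference, Hpcal4 at 0.60 and Crtac1 at 0.07. In 14 of the 17 members the NAc arrays lay wholly below dStr, and in 1 wholly above, beside 10.0% and 9.11% of all genes.

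Among genes that define the projection neuron types, 3 of 12 passed in the direct pathway list, 3 of 11 in the indirect pathway list and 6 of 24 in the list shared by both, beside 2.05% of all genes. These lists too were drawn up with earlier results known. In the direct pathway list, 2 of 12 tested members were higher in NAc, 1 was lower, and the median was -0.35. Tac1, the precursor of substance P, read 4965, 3945 and 3470.3 in NAc and 3899, 4665 and 4020.1 in dStr, and the arrays of both regions were interleaved (log2 difference -0.03, SE 0.27, adjusted p = 0.974). Drd1, the D1 receptor, read 1873, 1622 and 1016 in NAc and 1837, 1992 and 1876 in dStr (log2 difference -0.38, SE 0.42, adjusted p = 0.764). NAc 1 lay among the dStr arrays and NAc 2 and NAc 3 below them. Pdyn, the precursor of dynorphin, read 718, 616 and 514 in NAc and 330.1, 336 and 249 in dStr, with every NAc array above every dStr array (log2 difference 0.98, SE 0.17, adjusted p = 0.017). Its call ended without NAc 2 and without each dStr array, at up to 0.09 without dStr 3.

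Among the transcription factors of this list, Isl1 read 245, 521 and 476 in NAc and 316, 283 and 309 in dStr and overlapped (log2 difference 0.36, SE 0.28, adjusted p = 0.641). Ebf1 read 58.5, 97.3 and 84.5 in NAc and 195, 155 and 172 in dStr, wholly lower in NAc (log2 difference -0.998, SE 0.27, adjusted p = 0.112), and passed in the fit of the 6 arrays alone, at 0.034. Dlk1, described above, and Reln are also members. The others differed by 0.82 (Eya1), -0.60 (Mpped2), -0.47 (Slc35d3), -0.42 (Sfxn1) and -0.33 (Zfp521), none of which passed.

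In the indirect pathway list, 3 of 11 tested members were lower in NAc and 0 higher (5 and 1 unadjusted), with a median of -0.37. The NAc arrays lay wholly below dStr in 5 and wholly above in 2, beside 10.0% and 9.11% of all genes. Drd2, the D2 receptor, read 249.5, 216 and 252 in NAc and 697, 476 and 725 in dStr. Each NAc array was below each dStr array (log2 difference -1.33, SE 0.21, adjusted p = 0.0104), and the BNST mean was 87.2. Penk, the precursor of the enkephalins, read 5161, 4088 and 3671 in NAc and 4079, 5205 and 4869.7 in dStr with overlap (log2 difference -0.14, SE 0.25, adjusted p = 0.871). Gprin3, a G protein-regulated protein of neurites, read 92.8, 121 and 90.9 in NAc and 339.7, 347 and 453 in dStr (log2 difference -1.75, SE 0.23, adjusted p = 0.00396). Sh3rf2, a ubiquitin ligase with SH3 domains, read 127, 140.3 and 89.5 in NAc and 460.1, 355 and 503 in dStr (log2 difference -1.76, SE 0.27, adjusted p = 0.00803). In both, every dStr array was well above every NAc array.

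Gpr6, a constitutively active receptor of these neurons, read 1498, 1449 and 990.3 in NAc and 2068, 2076 and 2282 in dStr, wholly lower in NAc but short of the threshold (log2 difference -0.72, SE 0.30, adjusted p = 0.324). The ectonucleotidase Nt5e differed by 0.52, Upb1 by 0.40, Hpgd by -0.38, Six3 by -0.37, Ptprm by 0.10 and Fig4 by -0.09, without passing. Without dStr 3 the list kept 1 call, since Drd2 had an adjusted p of 0.0673 and Sh3rf2 of 0.0535. Without dStr 1, Drd2 had 0.0638. Other genes of these neurons that the annotation used here does not name were not analysed here.

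Of 24 tested genes shared by both neuron types, 5 were lower in NAc, 1 was higher, and the median was -0.40. The NAc arrays lay wholly below dStr in 11 of the 24 and wholly above in 1, beside 10.0% and 9.11% of all genes. Rgs9, the striatal regulator of G protein signalling, read 1013, 883 and 798 in NAc and 2173, 2037 and 2423 in dStr (log2 difference -1.29, SE 0.18, adjusted p = 0.00608). Actn2, the actin cross-linker alpha-actinin 2, read 177, 169 and 116 in NAc and 512, 520.1 and 629.5 in dStr (log2 difference -1.75, SE 0.21, adjusted p = 0.00287). Foxp1, a forkhead transcription factor, read 1009, 1333 and 969 in NAc and 2578, 2583 and 2681 in dStr (log2 difference -1.25, SE 0.23, adjusted p = 0.0208). The peptidase Mme and Syndig1l, a relative of an AMPA receptor-associated protein, also passed (-1.52 and -1.98). Gad2, which makes GABA, was the member higher in NAc, at 3224, 2128 and 2376 in NAc and 1393, 1487 and 1551 in dStr (log2 difference 0.77, SE 0.16, adjusted p = 0.0363), whereas its relative Gad1 differed by 0.07 ± 0.13.

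Further members of the shared list did not pass although their NAc arrays lay wholly below dStr. Ppp1r1b, the phosphatase inhibitor DARPP-32, read 470.5, 1095 and 1131 in NAc and 2034, 2121 and 2438 in dStr, with NAc 1 lowest (log2 difference -1.37, SE 0.39, adjusted p = 0.132). Rasd2, the striatal GTPase Rhes, read 1254, 1373 and 1569 in NAc and 4529, 4577 and 5016 in dStr, well apart (log2 difference -1.74, SE 0.42, adjusted p = 0.0698), and passed in the fit of the 6 arrays alone at 0.00195. The SE of 0.42 rests on the spread within all 9 arrays, and BNST read 1161, 237 and 514. Pde10a, the striatal dual-substrate phosphodiesterase, read 3381, 2130.4 and 1280.0 in NAc and 4019, 3939.6 and 4297 in dStr, and Scn4b, a sodium channel subunit, 2625, 1407 and 949 in NAc and 3009, 3661 and 3347 in dStr. Both were wholly lower in NAc, most so in NAc 3, and neither passed (adjusted p = 0.335 and 0.414). Ptpn5, the striatum-enriched phosphatase, differed by -0.90 and the G protein subunit Gng7 by -0.39, again with arrays wholly apart.

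The remaining shared genes did not pass. The nuclear receptor Rxrg differed by -1.21 with a NAc 1 value above dStr (215, 54.8 and 26.7 in NAc and 175, 197 and 197 in dStr). Without NAc 1 it passed at 0.000956. Rarb differed by -0.41, the olfactory G protein subunit Gnal by -0.36, Adcy5, the main striatal adenylyl cyclase, by -0.32, the transcription factors Bcl11b by -0.23, Foxp2 by -0.05, Meis2 by -0.02, Zfp503 by 0.19 and Ikzf1 by 0.18, Arpp21 by -0.16 and Strip2 by -0.16. The sign of Foxp2 turned under quantile normalisation and that of Meis2 under median centring, and the SE of the differences in this paragraph lay between 0.20 and 0.47. The list had 3 lower calls without NAc 3 and 2 without dStr 1, dStr 2 or dStr 3. Losses of calls without 1 array reached 0.101 without dStr 3 for Foxp1, 0.129 without dStr 2 for Mme, 0.105 without dStr 3 for Syndig1l and 0.176 without dStr 1 for Gad2.

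**Figure D3:**
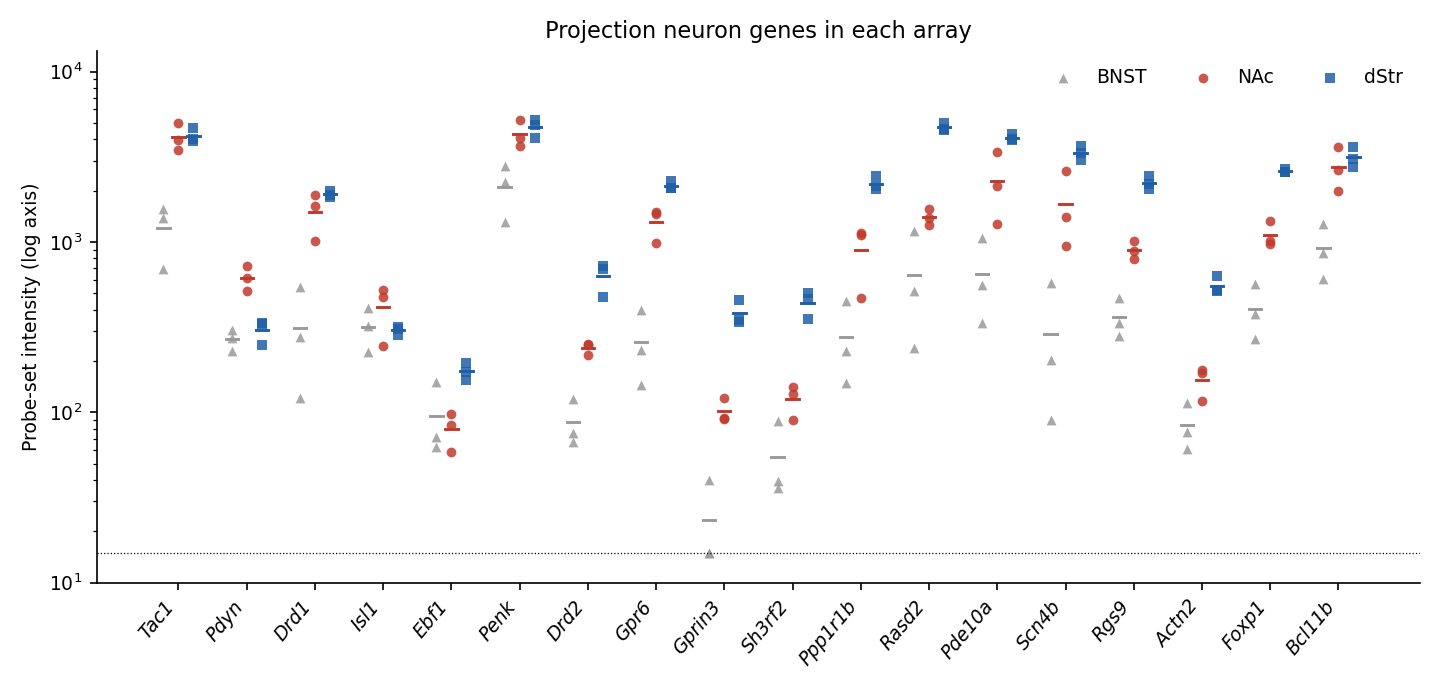
Probe-set intensity (log axis) of 18 projection neuron genes, 1 symbol per array, with bars at the means of the 3 arrays and a dotted line at the floor. Tac1, Penk and Bcl11b overlap between NAc (red circles) and dStr (blue squares), whereas Drd2, Gprin3, Sh3rf2, Rasd2, Rgs9, Actn2 and Foxp1 lie lower in NAc.

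Genes of the patch compartment and of the matrix were described apart. Counts that passed are read beside all genes, 0.950% higher and 1.10% lower in NAc. Of 14 tested patch genes, 3 were higher in NAc and 0 lower (5 and 3 unadjusted), with a median of 0.09. They were Nnat, Pdyn and Lypd1, a protein that binds nicotinic receptors, at 841, 910.1 and 1099 in NAc and 632, 465 and 407 in dStr (log2 difference 0.92, SE 0.18, adjusted p = 0.0251). Among the 14 patch genes the NAc arrays lay wholly above dStr in 6 and wholly below in 3. The collagen gene Col11a1 differed by 1.49 (adjusted p = 0.0614, and 0.000927 without NAc 1). Without dStr 3, 0 passed. Pdyn alone passed without NAc 3, Lypd1 without dStr 1 and Nnat without dStr 2. Without NAc 2 none of these 3 passed, and the potassium channel-interacting protein Kcnip1 did, which is named after its values were seen. The adjusted p of Lypd1 reached 0.129 without dStr 3. Of 11 tested matrix genes, 2 were lower in NAc, Rasgrp2 and Cnr1, and 10 had a negative difference, with a median of -0.53. The NAc arrays lay wholly below dStr in 6 of the 11 and wholly above in 1, beside 10.0% and 9.11% of all genes. The protein phosphatase inhibitor Ppp1r1a, at -1.29, was the largest of those that did not pass (adjusted p = 0.21).

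In the list of dopamine signal transduction, 2 of 31 tested genes were higher in NAc and 1, Drd2, was lower, with a median of -0.19. Counts that passed in this paragraph are read beside 2.05% of all genes. Prkar2a, a regulatory subunit of protein kinase A, read 877, 912 and 896 in NAc and 513, 423 and 387 in dStr (log2 difference 1.01, SE 0.16, adjusted p = 0.00859, and 0.0575 without dStr 3). The inhibitory G protein subunit Gnai1 differed by 0.59 (adjusted p = 0.0461), and its call ended without any 1 of the 6 arrays, at up to 0.205 without dStr 1. Without dStr 3 the list had 0 calls. Among 17 RGS genes, Rgs9 alone passed, and Rgs20 came next at -1.06 (adjusted p = 0.0591, or 0.0207 in the 6 arrays alone). Among 16 phosphodiesterases, Pde1a alone passed, whereas Pde7b read 1093, 1390.3 and 1184 in NAc and 2652, 2405 and 2654 in dStr (log2 difference -1.07, SE 0.29, adjusted p = 0.117) and passed in the 6 arrays alone at 0.0109. The BNST arrays of Pde7b, which enter its SE, read 994, 403 and 406.

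Exchange factors for small GTPases showed differences of both signs. Of 28 tested Ras and Rap regulators, 1 was higher and 2 were lower in NAc, beside 0.950% and 1.10% of all genes. The median was -0.01. The NAc arrays lay wholly above dStr in 6 and wholly below in 7, beside 9.11% and 10.0% of all genes. Rasgrf2, an exchange factor activated by calmodulin, read 167, 318 and 332 in NAc and 61.5, 67.4 and 78.7 in dStr (log2 difference 1.71, SE 0.23, adjusted p = 0.00447), opposite in direction to Rasgrp2. Dab2ip, a Ras GTPase-activating protein, differed by -1.18 (adjusted p = 0.033, and 0.144 without dStr 3).

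Of 33 tested genes in the neuropeptide list, 4 were higher in NAc, beside 0.950% of all genes, namely Cartpt, Tac2, Crh and Pdyn. Crh read 59.97, 203 and 135 in NAc and 15.5, 27.1 and 15 in dStr (log2 difference 1.97, SE 0.37, adjusted p = 0.0218), with a BNST mean of 476. The only member lower in NAc was the growth factor Igf1, at 132, 87.6 and 79.9 in NAc and 251, 235 and 308 in dStr (log2 difference -1.29, SE 0.18, adjusted p = 0.0046), whose other probe set went the other way. The median of the list was 0.09. Without NAc 1 the count of those higher was 6, and it was 2 without NAc 2, dStr 1 or dStr 3.

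Of 31 tested neuropeptide receptor genes, 4 were higher in NAc and 0 lower, beside 0.950% and 1.10% of all genes. At an unadjusted p under 0.05 the counts were 8 and 0, and the median of these receptor genes was 0.13. The NAc arrays lay wholly above dStr in 9 of them and wholly below in 0, beside 9.11% and 10.0% of all genes. Besides Trhr they were Ramp3, a partner protein of calcitonin-family receptors, at 178, 300.5 and 261 in NAc and 106, 84.6 and 79.3 in dStr (log2 difference 1.29, SE 0.20, adjusted p = 0.00868), Adcyap1r1, the PACAP receptor, at 1017, 893 and 1102 in NAc and 501, 428 and 577 in dStr (log2 difference 0.98, SE 0.15, adjusted p = 0.0074), and Cckbr, a cholecystokinin receptor (0.94, adjusted p = 0.035). Adcyap1r1 and Cckbr each had a further probe set of opposite sign, and neither passed when the probe sets of a gene were averaged. Calcr, the receptor partner of Ramp3, was near the floor in every dStr array. The list kept 1 call without dStr 3 and 2 without dStr 1 or dStr 2, and had 6 without NAc 1. Losses reached 0.0587 without dStr 3 for Ramp3 and 0.176 without dStr 3 for Cckbr.

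**Figure D4:**
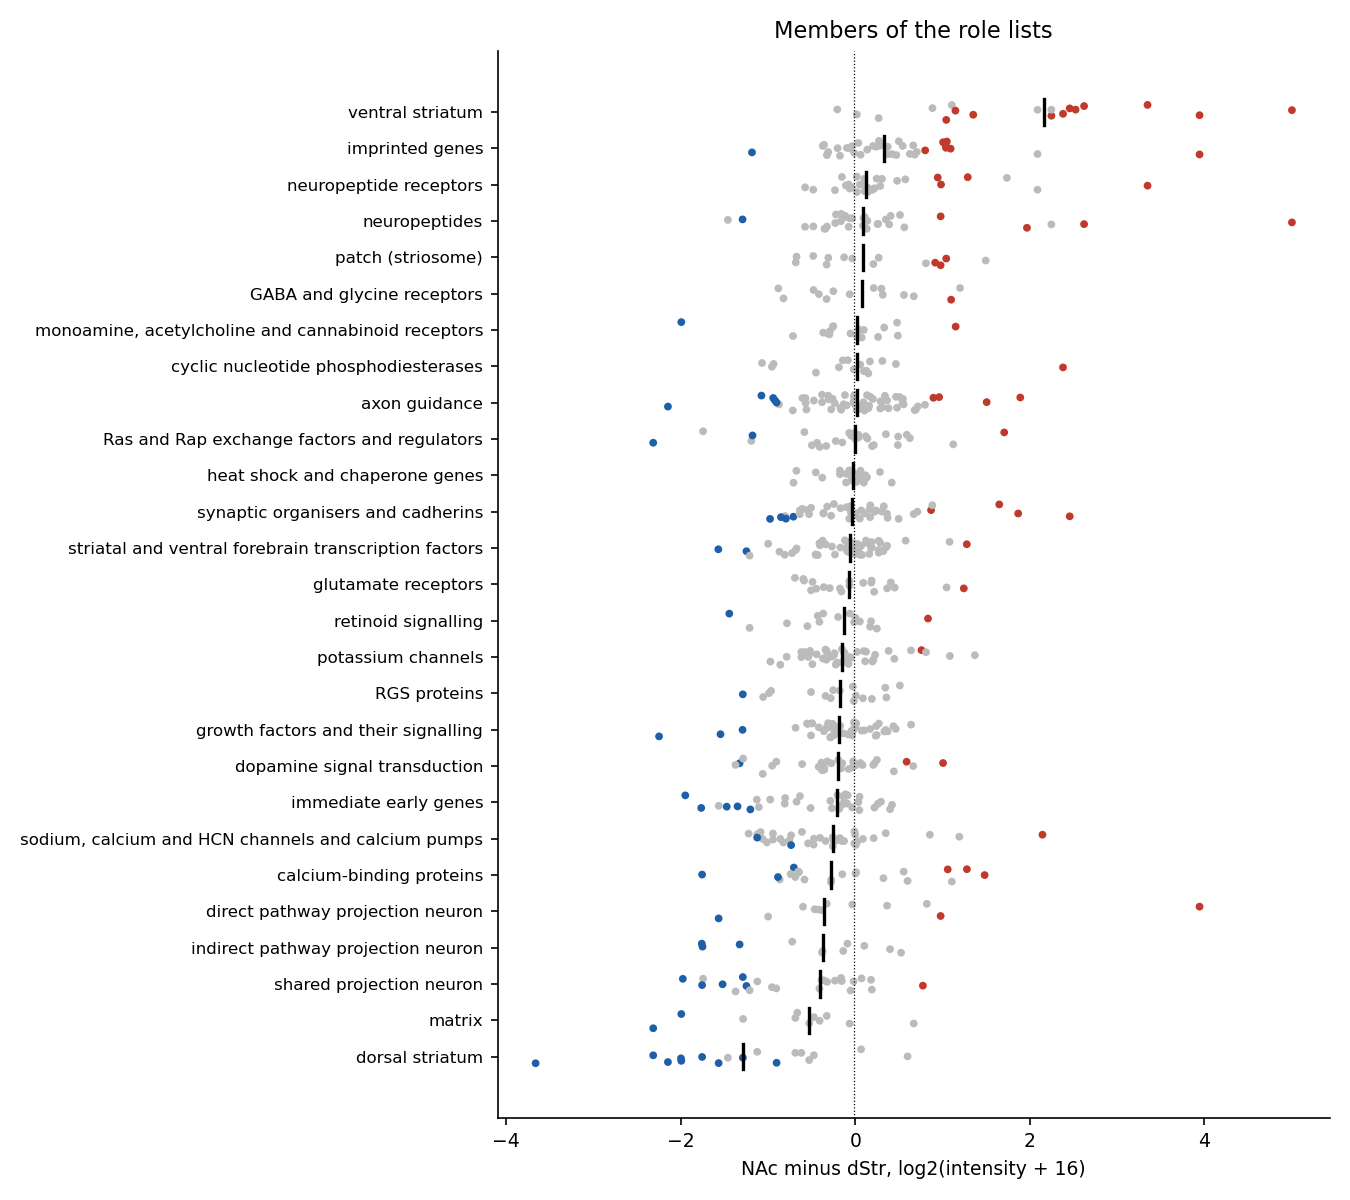
Difference between NAc and dStr (x axis, log2) of the tested members of each of the 27 role lists, 1 point per gene, with red for higher in NAc, blue for lower in NAc and grey for not passed. The black bars are the list medians and run from -1.29 in the dorsal striatum list to 2.17 in the ventral striatum list, and the dotted line is the median of all genes.

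Receptor and channel genes that passed are read beside the 2.05% of all genes. Of 19 monoamine, acetylcholine and cannabinoid receptor genes, 1 was higher in NAc, the serotonin receptor Htr4 (1.15, adjusted p = 0.0475), and 1 was lower, Cnr1. The serotonin receptor Htr1b, at -0.71, did not pass. Htr4 lost its call in every leave-out but that of NAc 1, at up to 0.216 without dStr 1. Of 21 glutamate receptor genes, Grin3a, an NMDA receptor subunit, passed at 1.24 (adjusted p = 0.0204). Of 14 GABA and glycine receptor genes, Gabra5 passed at 1.10 (adjusted p = 0.0282). Both were higher in NAc. The kainate receptor subunit Grik1 (1.05) and the GABA receptor subunit Gabrg1 (1.20) passed without NAc 1, at 0.00102 and 0.00414. Grin3a lost its call without NAc 2, NAc 3 or any dStr array, at up to 0.106 without dStr 3, and Gabra5 without NAc 2, NAc 3, dStr 1 or dStr 3, at up to 0.139 without dStr 1. Averaging the probe sets of a gene also ended the call of Grin3a.

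Of 47 potassium channel genes, 1 passed, Kcnd3, which carries A-type current and was higher in NAc. It read 597, 567 and 564 in NAc and 366, 363 and 279.7 in dStr (log2 difference 0.76, SE 0.14, adjusted p = 0.0215, and 0.106 without dStr 3). Its call also ended when the probe sets of the gene were averaged. Kcnc2, a channel of fast-spiking neurons, read 56.7, 216 and 273 in NAc and 57.3, 54.4 and 38.7 in dStr, where NAc 1 alone was at the dStr level (log2 difference 1.37, SE 0.42, adjusted p = 0.158). Without NAc 1 its adjusted p was 0.000563. Of 40 sodium, calcium and HCN channel and calcium pump genes, 1 was higher in NAc, Slc8a1, and 2 were lower, the calcium channel subunits Cacng4 at 358, 479 and 497 in NAc and 957, 938 and 1043 in dStr (log2 difference -1.12, SE 0.19, adjusted p = 0.0111) and Cacnb2 (-0.74, adjusted p = 0.0199). Slc8a2, the other exchanger measured beside Slc8a1, pointed down, at -1.22 (adjusted p = 0.165). Both calcium channel subunits lost the call without any 1 dStr array, and Cacnb2 also without NAc 3, at up to 0.0708 without dStr 3 for Cacng4 and 0.091 without dStr 1 for Cacnb2. The NAc arrays lay wholly below dStr in 15 of the 40 genes and wholly above in 2, beside 10.0% and 9.11% of all genes, and the median was -0.26.

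Calcium-binding proteins split evenly, with 3 of 22 tested genes higher and 3 lower in NAc, beside 0.950% and 1.10% of all genes. The higher ones belong to the neuronal calcium sensor family. Vsnl1 read 1045, 1997 and 2181 in NAc and 525, 676 and 559.8 in dStr (log2 difference 1.48, SE 0.24, adjusted p = 0.0111), Hpcal1 470.0, 791 and 685 in NAc and 254, 273 and 230.5 in dStr (log2 difference 1.28, SE 0.19, adjusted p = 0.00708) and Ncs1 1378, 834 and 850.0 in NAc and 492, 426 and 489.6 in dStr (log2 difference 1.06, SE 0.19, adjusted p = 0.0199). The lower ones were Actn2, Cabp1 and Pcp4, of which Cabp1 resembles calmodulin and Pcp4 regulates it. Pcp4 read 4012, 4215 and 3828 in NAc and 6506, 6606 and 6538 in dStr (log2 difference -0.70, SE 0.13, adjusted p = 0.0204), and its arrays hardly varied within a region. Cabp1 differed by -0.89 (adjusted p = 0.00899). Among the 22 genes the NAc arrays lay wholly above dStr in 6 and wholly below in 8, beside 9.11% and 10.0% of all genes. In single leave-outs Vsnl1 reached 0.068 without dStr 1, Ncs1 0.0947 without dStr 2, Pcp4 0.0987 without dStr 3 and Cabp1 0.0558 without dStr 1, and another probe set of Ncs1 went the other way.

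Adhesion and guidance genes differed in both directions. Their counts that passed are read beside all genes, 0.950% higher and 1.10% lower in NAc. Of 45 tested synaptic organisers and cadherins, 4 were higher in NAc, namely Cbln4 and the protocadherins Pcdh8, Pcdh19 and Pcdh15. Pcdh8 read 443, 1204 and 1213 in NAc and 247, 229.7 and 204 in dStr (log2 difference 1.87, SE 0.32, adjusted p = 0.0147), Pcdh19 211, 510.5 and 454 in NAc and 115, 119 and 87.3 in dStr (log2 difference 1.65, SE 0.33, adjusted p = 0.0322), and Pcdh15 differed by 0.87 (adjusted p = 0.034). Another probe set of Pcdh15 went the other way, and Pcdh15 did not pass when the probe sets were averaged. The 4 lower members were the classical cadherins Cdh8 at 388, 381 and 412 in NAc and 829.9, 736 and 805 in dStr (log2 difference -0.98, SE 0.15, adjusted p = 0.00859) and Cdh9 (-0.71), the leucine-rich organiser Lrrtm2 (-0.85) and the calsyntenin Clstn2 (-0.79), with adjusted p of 0.0438, 0.0377 and 0.015 for the last 3. Pcdh18 differed by 0.88 without passing, and passed without NAc 1 at 0.0237. The list had 5 higher calls without NAc 1 and 1 without each of the other 5 arrays. The lower calls went to 2 when NAc 1 or NAc 3 was left out, to 1 for dStr 1 or dStr 2 and to 0 for dStr 3. Adjusted p-values reached 0.175 without dStr 1 for Pcdh15, 0.155 without dStr 3 for Pcdh19, 0.054 without dStr 3 for Cdh8, 0.155 without dStr 2 for Cdh9, 0.163 without dStr 3 for Lrrtm2 and 0.087 without dStr 3 for Clstn2.

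Of 61 tested axon guidance genes, 4 were higher and 5 lower in NAc, beside 0.950% and 1.10% of all genes, with a median of 0.01. Netrin signalling genes were among the higher ones, the ligand Ntn1 at 224, 219 and 239 in NAc and 104, 132 and 93.9 in dStr (log2 difference 0.96, SE 0.15, adjusted p = 0.00958) and the receptor Unc5d at 138, 368 and 366 in NAc and 71.6, 64.2 and 47.2 in dStr (log2 difference 1.89, SE 0.33, adjusted p = 0.0165). The plexin Plxnc1 (1.505) and the semaphorin co-receptor Nrp1 (0.89) were also higher. Another probe set of Plxnc1 went the other way, and Plxnc1 did not pass when the probe sets of a gene were averaged. Semaphorins were among the lower ones, Sema3a at 131, 106 and 97.9 in NAc and 256, 219 and 284 in dStr (log2 difference -1.08, SE 0.16, adjusted p = 0.00669) and Sema7a, with the receptor Plxnd1, the ephrin receptor Ephb6 (-0.94) and Slit3 (-0.92), a ligand of Robo receptors. Sema3d, at -0.87, did not pass. Among the 61 genes the NAc arrays lay wholly above dStr in 16 and wholly below in 13, beside 9.11% and 10.0% of all genes. Without dStr 3, 0 passed as higher and 2 as lower, and without NAc 3, dStr 1 or dStr 2, 1 passed as higher. Losses reached 0.0627 without dStr 3 for Ntn1, 0.0873 without dStr 3 for Plxnc1, 0.0923 without dStr 3 for Nrp1, 0.155 without dStr 1 for Ephb6 and 0.144 without dStr 1 for Slit3.

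Of 56 tested transcription factors of the striatum and ventral forebrain, 1 was higher and 2 were lower in NAc. Counts that passed in this paragraph are read beside all genes, 0.950% higher and 1.10% lower in NAc. Sox11, a factor of young neurons, read 493, 914 and 833 in NAc and 277, 317 and 273 in dStr (log2 difference 1.28, SE 0.25, adjusted p = 0.0297). Onecut2 read 109, 118 and 81.4 in NAc and 385, 318 and 302 in dStr (log2 difference -1.57, SE 0.16, adjusted p = 0.00128), far apart and even, and Foxp1 was given above. Sox11 lost its call without each array other than NAc 1, at up to 0.14 without dStr 3. In retinoid signalling, 2 of 16 genes passed with opposite signs. Rdh10, which makes retinaldehyde, was higher in NAc (0.83, adjusted p = 0.034, and 0.15 without dStr 3), and Rbp4, the retinol carrier, was lower, at 127, 200.3 and 176 in NAc and 513, 387 and 544 in dStr (log2 difference -1.44, SE 0.21, adjusted p = 0.00716). Of 46 growth factor genes, 3 were lower and 0 higher (9 and 4 unadjusted), namely Fgf20, Igf1 and Tgfa (-1.54, adjusted p = 0.0406, and 0.155 without dStr 2). Another probe set of Tgfa went the other way. Bmp4 was wholly lower without passing, at -0.68.

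Imprinted genes are expressed mainly from the copy of a single parent in some or all tissues. Of 36 tested, 7 were higher in NAc and 1 lower, beside 0.950% and 1.10% of all genes, with a median of 0.33. The NAc arrays lay wholly above dStr in 15 and wholly below in 3, beside 9.11% and 10.0% of all genes. Dlk1, Ddc, Nnat, Usp29, Nap1l5, Zdbf2 and Grb10 were higher. Usp29, a deubiquitinase gene, read 202, 187 and 176 in NAc and 81.8, 101 and 60.7 in dStr (log2 difference 1.09, SE 0.16, adjusted p = 0.00685), and Nap1l5, a nucleosome assembly protein-like gene, 2542, 2664 and 3327 in NAc and 1208, 1496 and 1412 in dStr (log2 difference 1.04, SE 0.15, adjusted p = 0.00537). Ddc, which makes dopamine and serotonin from their precursors, read 201, 292 and 284 in NAc and 115, 106 and 126 in dStr (log2 difference 1.05, SE 0.16, adjusted p = 0.00899). Grb10 and Zdbf2, outside the naming rule and given to complete the count, differed by 0.80 and 1.01. The call of Ddc was lost at 0.0528 without dStr 2. Usp29, Nap1l5 and Ddc each had a higher mean in BNST than in NAc, at 256, 4059 and 352. Cobl, an actin nucleator, was lower in NAc (-1.18, adjusted p = 0.0204), with another probe set in the other direction, and lost its call at up to 0.0959 without dStr 2. The count of those higher was 12 without NAc 1, 4 without dStr 2 and 5 without dStr 1 or dStr 3. Expression from each parental copy was not measured.

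Immediate early genes, which neurons switch on within minutes of activity, were lower in NAc where they passed. Of 33 tested, 5 were lower and 0 higher, beside 1.10% and 0.950% of all genes. At an unadjusted p under 0.05 the counts were 12 and 2, and the median was -0.20. The NAc arrays lay wholly below dStr in 11 and wholly above in 2, beside 10.0% and 9.11% of all genes. Egr2 read 158, 68.3 and 52.5 in NAc and 614, 339 and 241 in dStr (log2 difference -1.95, SE 0.39, adjusted p = 0.0315), and Egr4 read 132, 127 and 122 in NAc and 669.6, 418 and 369 in dStr (log2 difference -1.76, SE 0.34, adjusted p = 0.0268). In both the dStr values spread, dStr 1 being the highest. Egr3 read 516, 561 and 290.3 in NAc and 1048, 1175 and 1209 in dStr (log2 difference -1.35, SE 0.27, adjusted p = 0.033). Ier5 read 258, 175 and 168 in NAc and 636, 512 and 582 in dStr (log2 difference -1.47, SE 0.20, adjusted p = 0.00382) and the repressor Klf10 48.2, 51.7 and 20.2 in NAc and 95.6, 119 and 111 in dStr (log2 difference -1.20, SE 0.24, adjusted p = 0.033). Arc, a synaptic protein with a strongly regulated mRNA, read 204, 152 and 329.6 in NAc and 1283, 313 and 754 in dStr, where dStr 1 was far above the others and dStr 2 overlapped NAc (log2 difference -1.56, SE 0.57, adjusted p = 0.25). Ier5 kept its call in every leave-out, whereas the list held 1 call without NAc 3, dStr 1 or dStr 2, 2 without dStr 3 and 3 without NAc 2. The highest adjusted p values were 0.137 without dStr 1 for Egr4, 0.15 without dStr 3 for Egr3, 0.137 without dStr 1 for Egr2 and 0.144 without dStr 3 for Klf10. With no filter on low values 1 call was left. Per the labels, the mice had been anaesthetised and the fresh brain sliced before the tissue was chilled, for both regions alike.

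The windows before Egr2 and Egr4 are shown because these genes moved together and immediate early promoters are known for cAMP response elements and for the CArG box, which binds serum response factor. They are drawn as above, with capitals for half-sites TGACG on either strand and, in Egr2, for the CArG box.
Egr2: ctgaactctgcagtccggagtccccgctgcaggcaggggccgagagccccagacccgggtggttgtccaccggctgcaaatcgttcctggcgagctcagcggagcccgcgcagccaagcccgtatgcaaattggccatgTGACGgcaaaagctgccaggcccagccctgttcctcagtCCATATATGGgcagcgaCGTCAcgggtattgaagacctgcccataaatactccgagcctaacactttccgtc
Egr4: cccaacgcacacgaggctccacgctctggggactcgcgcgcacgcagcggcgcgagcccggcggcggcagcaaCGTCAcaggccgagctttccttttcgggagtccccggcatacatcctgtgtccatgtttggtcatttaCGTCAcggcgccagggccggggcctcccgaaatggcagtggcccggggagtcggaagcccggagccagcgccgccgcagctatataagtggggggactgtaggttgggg
The Egr2 window, at chr10:67537619-67537868 on the plus strand, is that of the start with the most matches among the 5 in the table. It holds half-sites 111 to 107 and 55 to 51 bases before the start and a CArG box between them, 72 to 63 bases before it. The Egr4 window, at chr6:85513590-85513839 on the minus strand, holds half-sites 177 to 173 and 109 to 105 bases before the start. The CArG box was found before 1.62% of genes in the table and 1.44% of those tested. It was found before 1 gene (0.909%) of those higher and 3 genes (2.73%) of those lower in NAc.

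Of 23 heat shock and chaperone genes, 0 passed in limma and 1 in each direction had an unadjusted p under 0.05, the largest difference being that of the chaperone Dnajb5, at -0.71. Array weights gave 1 call in this list.

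Markers of other cell types were summed per array to show what else the punches held. In 10 of the 12 lists 0 of 121 tested entries passed in limma, where a gene in several lists counts in each. Of these entries, 20 had an unadjusted p under 0.05, beside 1860 of all 14208 genes, each counted once. Without NAc 1, 2 astrocyte genes, 1 GABA interneuron gene and 1 septal gene passed. Summed astrocyte markers were 28067 to 32017 in NAc and 25687 to 27706 in dStr, and the arrays did not overlap. Such a sum is weighted towards the most abundant markers. Of the 21 astrocyte genes, 14 had a positive and 7 a negative difference, with a median of 0.09. The NAc arrays lay wholly above dStr in 6 of them and wholly below in 3, beside 9.11% and 10.0% of all genes. Summed microglia markers were 4736 to 5519 against 6002 to 6328, and those of endothelium and pericytes 4406 to 4839 against 5138 to 5853, both lower in NAc without overlap. Oligodendrocyte markers overlapped, at 17827 to 26007 against 21332 to 24157. So did those of cholinergic interneurons, at 661 to 1234 against 772 to 831, with NAc 1 the lowest in both lists. The markers with the largest differences that did not pass were Itih3 for astrocytes (1.05), C1qa for microglia (-0.85), Vwf for endothelium (-0.79), Gpr37 for oligodendrocytes (0.50), Lhfpl3 for their precursors (0.65), Mgp for meninges (-0.32) and Mia for choroid plexus (-0.30). Of 13 ependymal and choroid plexus markers, 1 stood at the floor in all NAc arrays and 3 in all dStr arrays.

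Summed glutamatergic neuron markers were 4309 to 4958 in NAc and 5134 to 6312 in dStr. Of 10 tested, 1 passed, Nrgn, the calmodulin-binding protein neurogranin, which striatal neurons also express, at 872, 1004 and 1014 in NAc and 2015, 2266 and 2250.3 in dStr (log2 difference -1.16, SE 0.15, adjusted p = 0.00361). Summed without Nrgn, an alternative chosen after seeing the data, the markers were 3295 to 3953 in NAc and 3120 to 4046 in dStr and overlapped. The median of the list was 0.14, with 6 of 10 members positive. Emx2, a cortical transcription factor, differed by -0.50. The defining cortical genes Tbr1 and Neurod6 were at or near the floor in all 6 arrays, between 15 and 19.5, and the vesicular glutamate transporter Slc17a7 lay below the filter at 41.8 to 54.3. Among 5 markers of the islands of Calleja and the olfactory tubercle, which lie beside the NAc, Dpp10 passed (0.97, adjusted p = 0.0195, and 0.0785 without dStr 3). The list median was 0.38, with 4 of 5 positive, whereas Ppp1r1b differed by -1.37. Summed without Dpp10, again chosen after seeing the data, the other 4 markers were 1168 to 2563 in NAc and 2730 to 3187 in dStr. This sum was lower in NAc without overlap, but much of it was Ppp1r1b, which is also a member of the shared projection neuron list. Ppp1r1b read 470.5, 1095 and 1131 in NAc and 2034, 2121 and 2438 in dStr. The sum therefore gives no direction for the rest of these markers. In the list of septal and preoptic neurons 0 of 8 passed. Gpr101 had the largest difference, 0.92, with an adjusted p of 0.119, or 0.00394 without NAc 1. The part of these cell types in the differences above was not tested.

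Ribosomal protein and respiratory chain genes, 30 and 66 of which were tested, had 0 calls in limma (2 and 0 genes at an unadjusted p under 0.05) and medians of -0.03 and -0.08. Their summed levels were lowest in NAc 1 and highest in NAc 3, 64283 and 101530 for ribosomal proteins, and the dStr arrays lay between, at 78232 to 85199. Single members had the same order of NAc arrays. Rpl37 read 178, 459 and 922 in NAc and 610.1, 539.5 and 695 in dStr and the ATP synthase subunit Atp5l 59.6, 319 and 677 in NAc and 446, 367 and 556 in dStr, with differences of -0.51 and -0.84. The part of this spread in the other results was not tested.

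**Figure D5:**
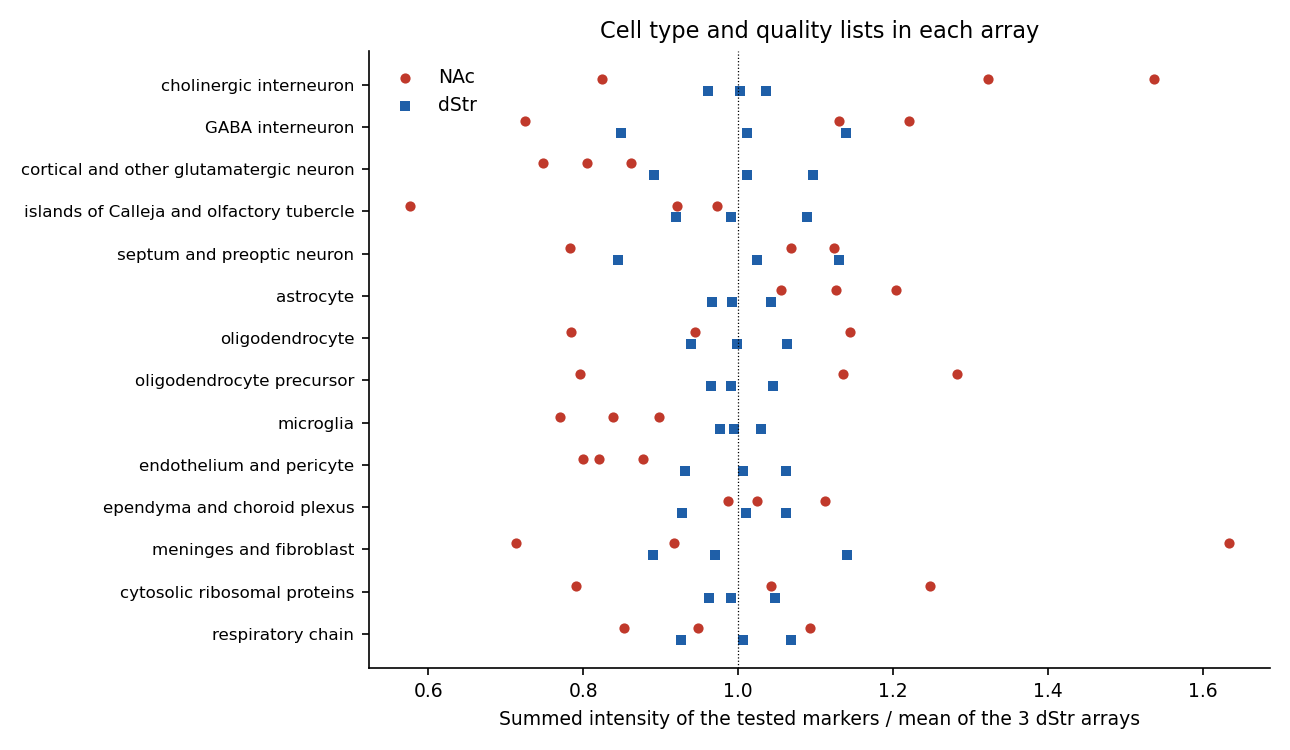
Summed intensity of the tested markers of each cell type and of the ribosomal and respiratory genes in each array, divided by the mean of the 3 dStr arrays (x axis, no unit), with 1 symbol per array. NAc (red circles) lies wholly above dStr (blue squares) for astrocytes and wholly below for microglia, for endothelium and pericytes and for glutamatergic neurons, the last of which overlap without Nrgn.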

How the data were processed

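RNA from the NAc and the dStr was read on 3 arrays each. The deposited table holds linear intensity values of 45037 probe sets, and how the authors summarised and scaled them is not given in the sources used here. The lowest value was the same on all arrays, so low signals had been raised to a floor, and folds of genes near it are understated. With 3 arrays per region, their number limits the precision. Of the probe sets, 34945 had 1 gene symbol in the platform annotation, 932 several and 9160 none, and 34741 were matched to a current RefSeq symbol by Entrez identifier.

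Values were taken as log2(intensity + 16) without rescaling. Probe sets above the 40th percentile of the array on 3 or more of the 9 arrays were kept, 29293 in all. Each of the 14208 genes was read from 1 of them, the one of highest mean (5897 genes had several). A linear model with a mean per region over all 9 arrays, with 6 residual degrees of freedom, was fitted with limma 3.58.1 in R 4.3.3, followed by empirical Bayes moderation, a 2-sided test of NAc minus dStr and Benjamini-Hochberg adjustment at 0.05. The BNST arrays were kept because they add to the estimate of spread. Alternatives were other scalings, filters, pseudocounts, probe set rules, priors, array weights, the 6 arrays alone, a block on replicate number and leaving out each array. The procedure was tested on simulated data. Promoter sequences were taken from RefSeq (GRCm38.p6).

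The members and the gene lists were chosen with earlier results of these data known. The text names the 20 genes with the largest difference per direction among those that passed, did not overlap and exceeded the median of all probe sets in the higher region, skipping genes without an established name, up to 5 passing members per list and direction, all tested members of the projection neuron, ventral and dorsal striatum lists, and the largest member that did not pass of each other list. Of these 176 genes, 101 passed, and 25 had a probe set in the other direction.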

Additional observations from a re-analysis of the deposited data

How the results depend on the processing

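All 101 named genes that passed kept their direction under the 18 alternatives run, and 41 of them passed in all. Leaving out 1 array at a time gave 112 to 419 genes that passed (291 with all arrays), 54 to 232 higher in NAc, 58 to 187 lower and 101 to 255 with an absolute log2 difference of at least 1. Of the named genes that passed, 44 passed in all 6 leave-outs, and leaving out NAc 1, NAc 2 or NAc 3 lost 6, 31 or 33 and leaving out dStr 1, dStr 2 or dStr 3 lost 47, 43 or 53. Array weights, which gave NAc 1 a weight of 0.298 and NAc 2 one of 1.89, gave 761 genes, 393 higher and 368 lower. Testing every probe set by itself gave 249 lower and 281 with an absolute log2 difference of at least 1. The replicate block gave 183 genes, 87 higher and 96 lower, and lost 30 named genes. Averaging the probe sets of a gene ended the calls of Adcyap1r1, Cckbr, Gad2, Gnai1, Grin3a, Kcnd3, Lypd1, Ncs1, Pcdh15, Plxnc1, Rdh10 and Vsnl1, higher in NAc. It also ended those of Cobl, Igf1, Lrrtm2 and Tgfa, lower in NAc. Deviations of same-numbered NAc and dStr samples correlated at -0.157, 0.023 and 0.261 for numbers 1, 2 and 3. Those of unlike numbers correlated at -0.303 to 0.241. With 3 samples per region, each measured from the mean of its own region, these values cannot decide whether the numbers pair the samples. The main fit does not pair them. The other alternatives gave 253 to 433 genes, within 1.5 times of 291. The percentage of genes without overlap was 30.4 to 31.5 without an NAc array and 30.6 without dStr 2, where fewer arrays are compared. Among named genes that did not pass, the sign changed in 1 or more leave-outs, whose differences ran from -0.257 to 0.213 for Foxp2, -0.0971 to 0.112 for Meis2, -0.373 to 0.0517 for Strip2, -0.176 to 0.0818 for Tac1, -0.147 to 0.446 for Crtac1, -0.0306 to 0.112 for Npy1r, -0.0095 to 0.376 for Zfp503, -0.931 to 0.0539 for Slc35d3, -0.0442 to 0.225 for Ptprm, -1.05 to 0.0885 for Rpl37 and -1.55 to 0.0476 for Atp5l. It also changed for Foxp2 with quantile normalisation (0.0133), the mean of probe sets (0.0244) and array weights (0.182), for Meis2 with median centring (0.0066) and array weights (0.035), and for Strip2 with array weights (0.0839). The cause was not tested.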
